A study of Mus musculus with 18 samples.

Results

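The copine genes Cpne6 and Cpne7 were followed across histone marks of active promoters, genotypes and ages in the mouse cerebellum. They were taken by name from a table that the study's authors deposited, where they are listed as cpne6 and cpne7 and where each of 24 genes has a score at its transcription start site (TSS). Both members were found, 2 of the 24 genes, and each had a score in all 16 immunoprecipitated libraries. The libraries came from chromatin of whole cerebella, immunoprecipitated for histone H3 trimethylated at K4 (H3K4me3), acetylated at K9 and K14 (H3K9/14ac) or acetylated at K27 (H3K27ac), and sequenced. Groups were wild-type (WT) mice at postnatal day 22 (P22) and Chd4 conditional knockout (cKO) mice at P22 for all 3 marks, and WT mice at postnatal day 6 (P6) for H3K4me3 and H3K9/14ac. Each of these 8 groups had 2 libraries, and 2 further input samples were not used here. The sources used here do not name the Cre line or the cells in which Chd4 was deleted. The labels do not say whether the paired libraries stem from different animals. The p-values therefore rest only on how far libraries of a group lie apart, which may be technical. In the main limma fits that spread was shared across promoters, although promoters of a library shifted together. Small limma p-values from 2 libraries per group can therefore overstate the evidence.

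Copines are cytosolic proteins with a pair of C2 domains, through which they bind phospholipid membranes when calcium rises, followed by a von Willebrand factor A domain that binds other proteins. Cpne6, also called neuronal copine, is known from forebrain neurons, where it moves to the membranes of dendritic spines upon calcium entry and acts on spine shape through the GTPase Rac1. Cpne7 belongs to the same family and is expressed in the nervous system and in other tissues. Chd4 is the chromatin-remodeling ATPase of NuRD, a complex that also carries histone deacetylases. H3K4me3 marks the region just downstream of active TSSs, and both acetylation marks are found at active promoters, H3K27ac also at active enhancers.

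The table places the scored Cpne6 start on chromosome 14 at position 56130197 and that of Cpne7 on chromosome 8 at position 125641274, in mm9, the build that the submitters' processing notes name. In the gene order of the RefSeq annotation of GRCm38, Cpne6 lies between the protein-coding genes Carmil3 and Nrl, and Cpne7 between Rpl13 and Sult5a1. RefSeq lists 4 curated transcripts of Cpne6 and 1 of Cpne7, and the width of the scored window is not given in the sources used here, so the start chosen for Cpne6 and any reach into neighbouring genes are unknown. Of the 9 copine genes of that annotation, only these 2 are in the table. Of 34 marker genes of cerebellar cell types, 1 is in the table, Nhlh1, so the makeup of the tissue could not be checked. Scores in the table ran from -0.82 to 67. They are not read counts, and the depth behind them is unknown.

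In WT cerebellum at P22 the paralogues stood at opposite ends of the H3K4me3 scores. Cpne7 had H3K4me3 scores of 11.61 and 13.67 in the 2 WT libraries, rank 5 from the top in each among the 23 promoters with a score in every library. Cpne6 scored -0.57 and -0.66, the lowest of the 23 in both libraries. The zero of the score is not defined in the sources used here, so a score below 0 is read only as low. The acetylation marks placed the genes closer together. H3K9/14ac scores were 3.51 and 5.20 at Cpne7, ranks 9 and 8, and 1.01 and 1.72 at Cpne6, ranks 15 and 14. H3K27ac scores were 2.57 and 2.46 at Cpne7, ranks 13 and 12, and 0.44 and 0.51 at Cpne6, ranks 17 and 18. Cpne6 was 1 of 6 promoters whose H3K4me3 was below 0 in both WT P22 libraries, and 1 of 3 of these (with Hmcn2 and Gnb3) whose H3K9/14ac was at least 1 in both. Across all marks, ages and genotypes, Cpne7 scored above Cpne6 in 16 of 16 libraries.

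**Figure D1:**
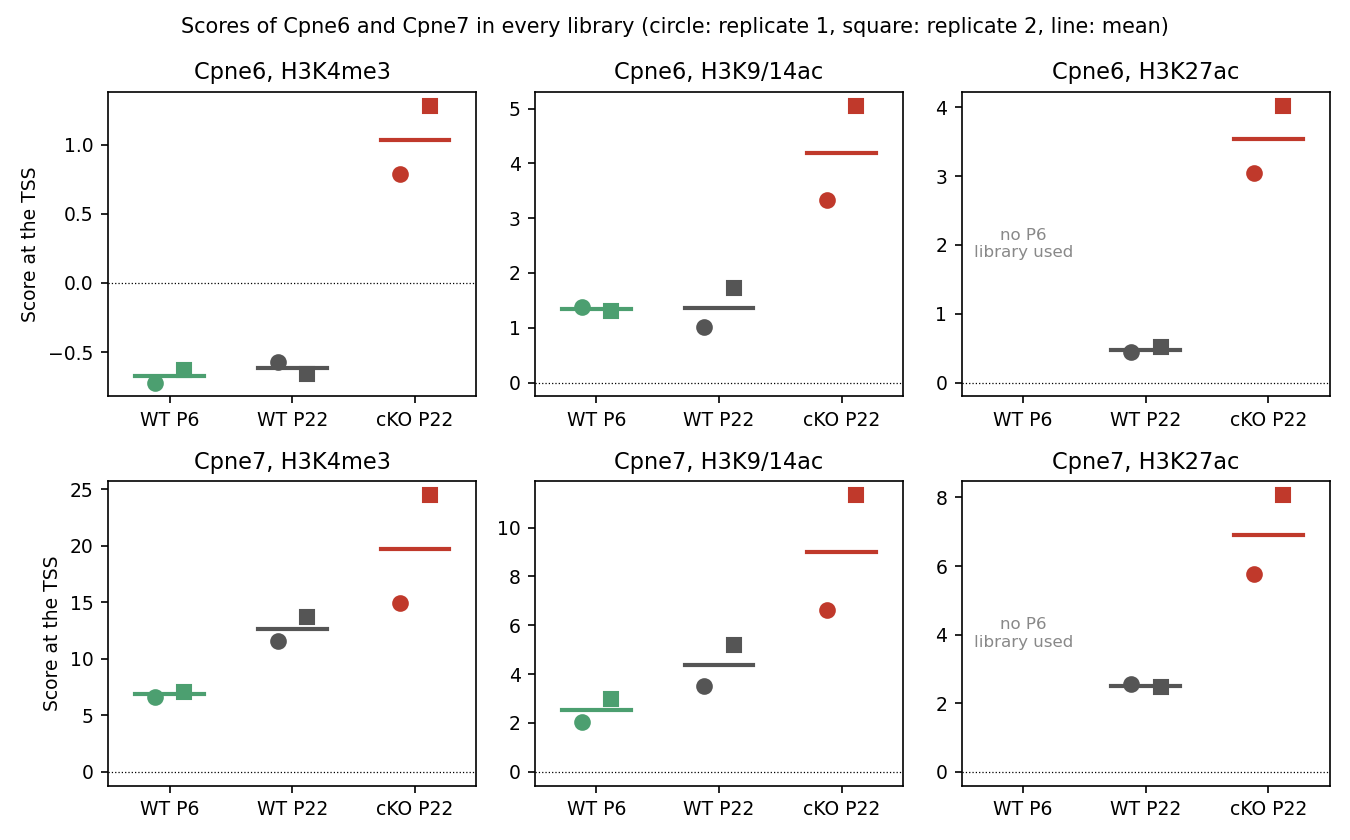
Score at the TSS (vertical axis, the authors' unit, a separate scale in each panel) of Cpne6 (top) and Cpne7 (bottom) in each library, by mark and group; circles are replicate 1, squares replicate 2 and lines the mean of 2 libraries. Both cKO libraries lie above both WT P22 libraries in all 6 panels, whereas from P6 to P22 the groups are apart at Cpne7 and overlap at Cpne6.

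The first comparison asked whether the marks at these promoters differ when Chd4 is lost. H3K4me3 at Cpne6 was 0.79 and 1.28 in the cKO libraries against -0.57 and -0.66 in WT. The cKO scores were the only ones above 0 among the 6 H3K4me3 libraries of this gene, but remained near the bottom of the table, at ranks 19 and 20. With 1 of its 6 scores at or above 1, Cpne6 fell under the filter used for the fit (2 or more libraries of the mark with a score of 1 or more), so its change comes from the fit without that filter. There it rose by 1.13 ± 0.28 (SE) on the log2(score + 2) scale, limma adjusted p = 0.010, in a comparison that called 39.1% of 23 promoters higher. The size of this change rests on the pseudocount, being 2.40 with 1 and 0.46 with 5 added to the scores, and the call was lost without WT replicate 1 (limma adjusted p = 0.078) or without WT replicate 2 (0.076). Of the 6 promoters below 0 in both WT libraries, Cpne6, Nhlh1 and Casq1 were above 0 in both cKO libraries.

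H3K4me3 at Cpne7 was 14.96 and 24.49 in the cKO libraries against 11.61 and 13.67 in WT. The lower cKO library was thus only slightly above the higher WT library. On the log2(score + 2) scale they differed by 0.54 ± 0.42 (SE), which did not pass the test (limma adjusted p = 0.270), while 50% of the 18 promoters passing the filter were called higher. Without cKO replicate 2 the difference was 0.22 and without cKO replicate 1 it was 0.86, neither of them called. Although the scores were higher, Cpne7 moved down the order of the 23 promoters, from rank 5 in both WT libraries to ranks 7 and 9 in the cKO. At each member the lower cKO score exceeded the higher WT score, as it did at 69.6% of the 23 promoters.

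H3K9/14ac rose at both members in the cKO, where 81.8% of the 22 promoters tested were called higher. Cpne6 scored 3.33 and 5.05 in the cKO libraries against 1.01 and 1.72 in WT. Its change was 0.87 ± 0.27 (SE) on the log2(score + 2) scale, limma adjusted p = 0.0029, rank 14 of 22. With 5 added in place of 2 the change was 0.53. Without WT replicate 1 it was 0.72 and no longer passed (limma adjusted p = 0.069). Cpne7 scored 6.64 and 11.33 in the cKO libraries against 3.51 and 5.20 in WT, again with a gap between the groups. Its change was 0.77 ± 0.27, limma adjusted p = 0.0084, rank 15 of 22. It was lost without WT replicate 1 (0.58, limma adjusted p = 0.143), without cKO replicate 2 (0.46, limma adjusted p = 0.114) and with the spread of each promoter taken alone (limma adjusted p = 0.129). Chromatin came from whole tissue, so a change in the share of cells carrying a mark and a change of the mark within cells cannot be told apart.

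H3K27ac also rose at both members, in a comparison that called 95.2% of 21 promoters higher. The cKO libraries had H3K27ac scores of 3.05 and 4.02 at Cpne6, against 0.44 and 0.51 in WT. The WT libraries differed by 0.07 and the cKO libraries by 0.97, both less than the distance between the groups. On the log2(score + 2) scale the change was 1.16 ± 0.23 (SE), rank 9 of 21. Cpne6 passed the filter through its cKO libraries alone, so a difference in that direction was built into its being tested there, and the p-value of that fit is not used. In the fit without the filter, which tests every promoter with scores, the same change passed (limma adjusted p = 9.2e-06), as did 91.3% of 23 promoters in that direction. With 5 added in place of 2 it was 0.64. At Cpne7, H3K27ac was 5.77 and 8.07 in the cKO against 2.57 and 2.46 in WT, a change of 0.97 ± 0.23, limma adjusted p = 2.0e-04, rank 12 of 21. Cpne7 missed the threshold with the spread of each promoter taken alone (limma adjusted p = 0.068). The groups were apart in this direction at 95.7% of the 23 promoters, the same share as for H3K9/14ac.

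Whether the cKO change differed between marks was tested with an interaction term in limma fits of 2 marks at a time. P-values were adjusted over the 22 promoters of each pair, those passing the filter in either mark. For Cpne6 the change in H3K4me3 minus that in H3K9/14ac was 0.25 ± 0.52 (SE, limma adjusted p = 0.949), and minus that in H3K27ac it was -0.03 ± 0.43. For Cpne7 these differences were -0.23 ± 0.52 and -0.43 ± 0.45 (limma adjusted p = 0.949 and 0.838). Cpne6 entered the fit of H3K4me3 and H3K27ac only through its cKO libraries of H3K27ac, so its p-value there is not used. H3K9/14ac minus H3K27ac was -0.28 ± 0.38 for Cpne6 and -0.20 ± 0.38 for Cpne7 (limma adjusted p = 0.995 for each). The call on H3K27ac and the missed threshold on H3K4me3 at Cpne7 are therefore not shown to differ. In each of these fits 0 of 22 promoters passed. With libraries centred on their median, the H3K4me3 minus H3K27ac difference at Cpne7 was -0.73 and passed (limma adjusted p = 0.031). The share of promoters passing in that centred fit was not counted, so this call has no background beside it. The standard errors leave room for differences of the size of the changes themselves.

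**Figure D2:**
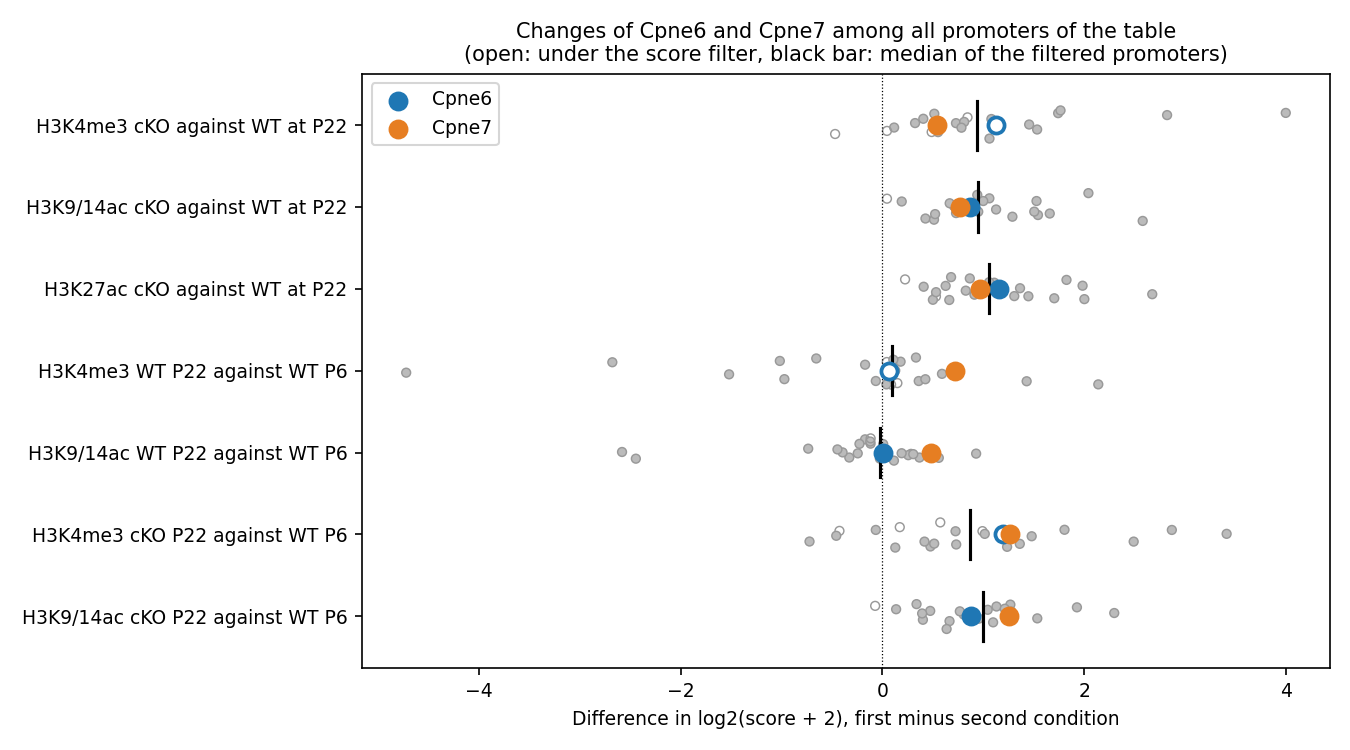
Difference in log2(score + 2) between the 2 conditions named on each line (horizontal axis), for every promoter of the table (grey), Cpne6 (blue) and Cpne7 (orange); open symbols are promoters under the score filter, taken from the fit without it, and black bars the median of those passing. In the 3 cKO against WT lines both members lie within 0.5 of the median, while in the 2 lines of WT P22 against WT P6 Cpne7 lies to the right of it and Cpne6 near it.

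The cKO changes at both members were near those of the table as a whole. The table holds only 24 genes, so its medians and shares describe these promoters and not the genome. Centring on their median takes out any change that most of them share, and the source of such a change was not tested. Over all promoters tested, the median change in the cKO was 0.94 for H3K4me3, 0.95 for H3K9/14ac and 1.06 for H3K27ac, and without the filter it was 0.81 for H3K4me3. Cpne6 lay 0.32 above the median change in H3K4me3 (without the filter, rank 8 of 23), 0.07 below it in H3K9/14ac and 0.10 above it in H3K27ac, and Cpne7 lay below it by 0.40, 0.18 and 0.09. After each library was centred on the median of its promoters, Cpne6 differed between cKO and WT by -0.37 ± 0.26 (SE) in H3K4me3. In H3K9/14ac it differed by -0.30 ± 0.14 (limma adjusted p = 0.235 and 0.125). The H3K27ac difference was -0.02 ± 0.15, from a fit that Cpne6 entered through its cKO libraries alone, so its p-value is not used. For Cpne7 the centred differences were -0.48 ± 0.14, -0.40 ± 0.08 and -0.20 ± 0.14. Of these, the H3K9/14ac difference passed the test (limma adjusted p = 0.018) in the direction opposite to the uncentred call, and those of H3K4me3 and H3K27ac did not (limma adjusted p = 0.058 and 0.241). Centring split the H3K9/14ac calls into 13.6% of promoters higher and 31.8% lower in the cKO. For H3K4me3 it gave 22.2% higher and 5.56% lower with the filter, and 8.7% higher and 60.9% lower without it, the fit that holds Cpne6. For H3K27ac it gave 23.8% higher and 28.6% lower. The centred values depend on which promoters set the median. With libraries centred on all promoters and no filter, Cpne7 differed by -0.96 in H3K4me3 and -0.55 in H3K9/14ac and Cpne6 by -0.44 in H3K9/14ac, all 3 passing as lower (limma adjusted p = 0.0060, 0.0045 and 0.018), where 52.2% of promoters were called lower in H3K9/14ac. In H3K27ac those values were 0.008 for Cpne6 and -0.18 for Cpne7, neither passing. With centred libraries no rise of either promoter in the cKO against WT passed the test in any mark, with or without the filter.

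**Figure D3:**
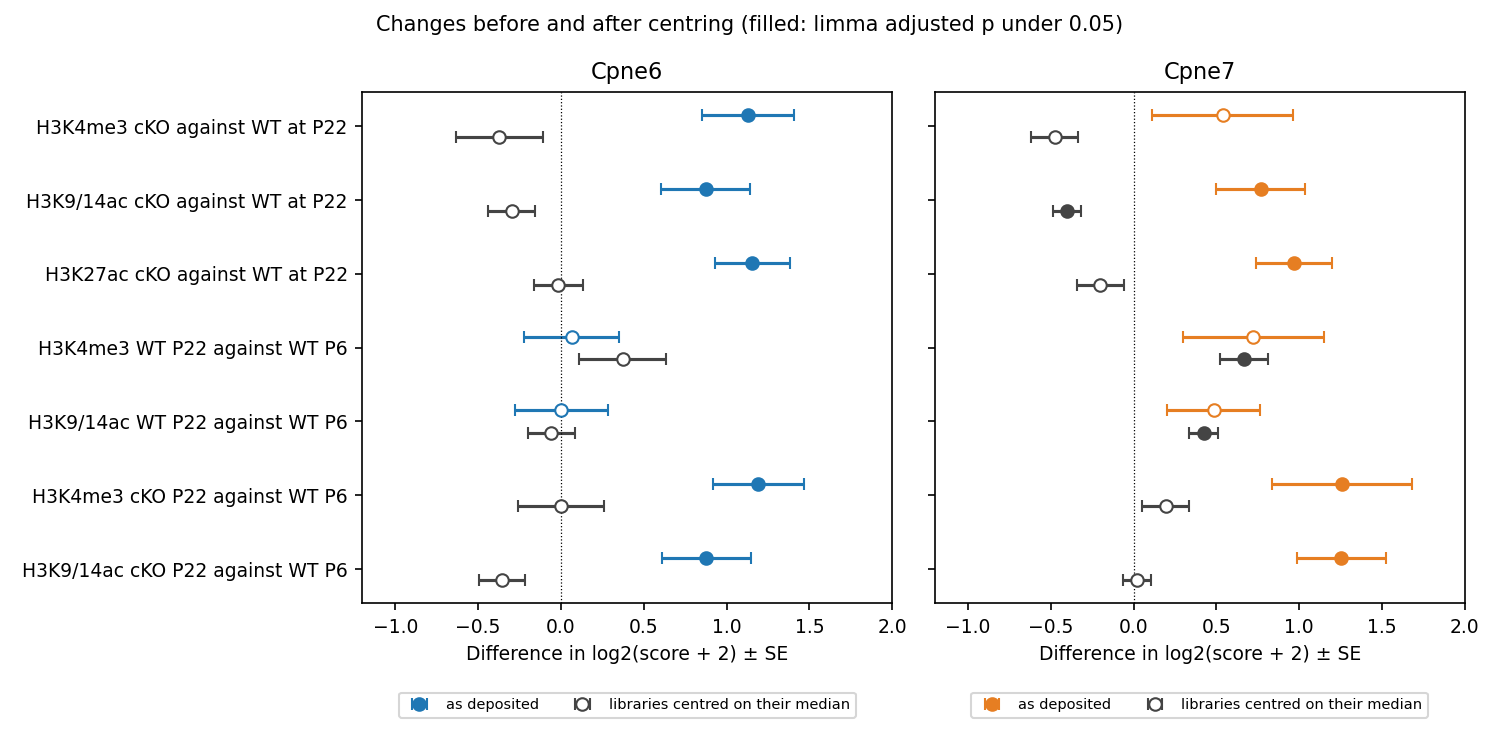
Difference in log2(score + 2) ± SE (horizontal axis) of Cpne6 (left) and Cpne7 (right) in each comparison, for scores as deposited (coloured) and for libraries centred on the median of the promoters tested (dark). Filled symbols have a limma adjusted p under 0.05. The filling at Cpne6 in H3K27ac is not read, because Cpne6 entered that fit through its cKO libraries alone. Centring moves the cKO against WT estimates from above 0 to below 0, where only that of Cpne7 in H3K9/14ac passed the test. The centred estimate of Cpne6 in H3K27ac was -0.015 ± 0.15. Centred P6 to P22 differences of Cpne7 were 0.67 for H3K4me3 and 0.42 for H3K9/14ac.

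Replicate 2 was the higher cKO library at both members in every mark. On the log2(score + 2) scale it exceeded replicate 1 by 0.23 at Cpne6 and 0.64 at Cpne7 in H3K4me3, where the median promoter passing the filter differed by 0.72. The same differences were 0.40 and 0.63 in H3K9/14ac, with a median of 0.48, and 0.25 and 0.37 in H3K27ac, with a median of 0.30. In WT, replicate 2 was also the higher library by the median promoter in 4 of 5 groups, at Cpne7 in 4 of 5 and at Cpne6 in 3 of 5. Those medians ran from 0.16 to 0.37 in H3K4me3 and H3K9/14ac and stood at -0.13 in H3K27ac, so the higher replicate 2 was not a trait of the cKO alone.

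The second comparison followed both promoters in WT mice from P6 to P22, the period in which granule neurons of the cerebellum finish migrating and form synapses. H3K4me3 at Cpne7 was 6.64 and 7.06 at P6 and 11.61 and 13.67 at P22. The ages did not overlap, which was so in this direction for 29.2% of 24 promoters. The difference was 0.72 ± 0.43 (SE) on the log2(score + 2) scale, the third largest increase of 19 promoters tested, but did not pass the test (limma adjusted p = 0.227), where 10.5% were called higher. H3K9/14ac at Cpne7 was 2.05 and 3.00 at P6 against 3.51 and 5.20 at P22, also without overlap, as at 25% of 24 promoters. That difference was 0.49 ± 0.28, again the third largest of 23, with limma adjusted p = 0.341 and 4.35% of promoters called higher. It was 0.29 without WT P22 replicate 2 and 0.31 with 5 added in place of 2, and up to 0.68 without a library. Once libraries were centred on their median, both differences passed, at 0.67 ± 0.14 for H3K4me3 and 0.42 ± 0.09 for H3K9/14ac (limma adjusted p = 0.013 and 0.019). In those centred fits 21.1% and 8.7% of promoters were called higher. By rank, Cpne7 stood at 9 and 11 in the P6 libraries of H3K4me3 and at 5 in both P22 libraries.

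At Cpne6 neither mark moved with age beyond the spread of the libraries. Its H3K4me3 scores were -0.72 and -0.63 at P6 and -0.57 and -0.66 at P22, the lowest of 23 promoters in all 4 WT libraries. The difference, from the fit without the filter, was 0.06 ± 0.29 (SE), limma adjusted p = 0.913, where 4.17% of 24 promoters were called higher. H3K9/14ac at Cpne6 was 1.38 and 1.30 at P6, both inside the range of 1.01 to 1.72 spanned by the P22 libraries. That difference was 0.003 ± 0.281, limma adjusted p = 0.992. With libraries centred on their median, the age differences of Cpne6 were 0.37 ± 0.26 in H3K4me3, without the filter, and -0.06 ± 0.14 in H3K9/14ac. Neither passed (limma adjusted p = 0.242 and 0.730). Of the 5 promoters below 0 for H3K4me3 in all 4 WT libraries, Cpne6 and Casq1 were above 0 in both cKO libraries. The change with age in H3K4me3 was not shown to differ from that in H3K9/14ac at either gene, with interaction terms of 0.06 ± 0.24 for Cpne6 and 0.24 ± 0.28 for Cpne7 (limma adjusted p = 0.926 and 0.667 over 23 promoters).

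Against P6, the cKO libraries at P22 were higher at both promoters in both marks measured at P6. This comparison uses the same cKO libraries as the first and the same P6 libraries as the second, so it is not independent of them. H3K4me3 at Cpne7 was 14.96 and 24.49 in the cKO against 6.64 and 7.06 at P6. The change was 1.26 ± 0.42 (SE) on the log2(score + 2) scale, limma adjusted p = 0.011, in a comparison that called 50% of 18 promoters higher. It was lost without either P6 library (limma adjusted p = 0.078 without replicate 1 and 0.079 without replicate 2), without cKO replicate 2 (0.065) and with the spread of each promoter taken alone (0.071). H3K9/14ac at Cpne7 rose by 1.25 ± 0.27, limma adjusted p = 5.0e-05, where 77.3% of 22 promoters were called higher; with each promoter's own spread the limma adjusted p was 0.056. Cpne6 rose by 0.88 ± 0.27 in H3K9/14ac (limma adjusted p = 0.0030), or by 0.53 with 5 added in place of 2. In H3K4me3, without the filter, it rose by 1.19 ± 0.28 (limma adjusted p = 0.0099, 47.8% of 23 promoters called higher), which was lost without P6 replicate 1 (0.074) or replicate 2 (0.053). That change was 2.65 with 1 and 0.48 with 5 added to the scores. After centring, none of these 4 differences passed, and that of Cpne6 in H3K9/14ac was below 0, at -0.36 ± 0.14 (limma adjusted p = 0.099). Centred without the filter, that difference was -0.40 and passed as lower (limma adjusted p = 0.026), as did 43.5% of 23 promoters. The deposited scores at Cpne7 stood in the order P6, WT P22, cKO with no overlap between neighbours in either mark, as at 21.7% of 23 promoters in H3K4me3 and 26.1% in H3K9/14ac. After centring, the step from WT P22 to the cKO went the other way at Cpne7, by the -0.48 and -0.40 given above. At Cpne6, P6 and WT P22 overlapped in both marks and the cKO stood above them in the deposited scores.

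Taking the difference of the paralogues within each library removes a shift that is equal for its promoters on the log2(score + 2) scale. A common factor or offset of the scores themselves is not fully removed, because it moves low and high scores differently on that scale. In H3K4me3, Cpne7 exceeded Cpne6 by 2.75 and 2.73 on the log2(score + 2) scale at P6, by 3.25 and 3.55 in WT at P22 and by 2.60 and 3.01 in the cKO. The gap was widest in WT at P22, and the P6 values lay within the range of the cKO values. In H3K9/14ac it was 0.26 and 0.60 at P6, 0.87 and 0.95 in WT at P22 and 0.70 and 0.92 in the cKO. In H3K27ac it was 0.91 and 0.83 in WT and 0.62 and 0.74 in the cKO. From P6 to P22 the mean gap grew by 0.66 in H3K4me3 and by 0.48 in H3K9/14ac, without overlap of the libraries in either mark. An exact two-sided permutation test gave p = 0.333 for each, the smallest value that 2 libraries against 2 allow. In the cKO the gap changed by -0.59 in H3K4me3, -0.10 in H3K9/14ac and -0.19 in H3K27ac (exact two-sided permutation p = 0.333, 0.667 and 0.333). With 1 added in place of 2 the change in H3K4me3 was -1.83, and with 5 it was 0.0026. The sign of the cKO differences depends on the scale: in scores without log the gap went from 13.3 ± 1.52 to 18.7 ± 6.39 in H3K4me3, from 2.99 ± 0.69 to 4.79 ± 2.10 in H3K9/14ac and from 2.04 ± 0.13 to 3.38 ± 0.94 in H3K27ac (SD, n = 2). On that scale the gap also grew from P6 to WT P22, from 7.53 ± 0.23 to 13.3 ± 1.52 in H3K4me3 and from 1.19 ± 0.73 to 2.99 ± 0.69 in H3K9/14ac.

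**Figure D4:**
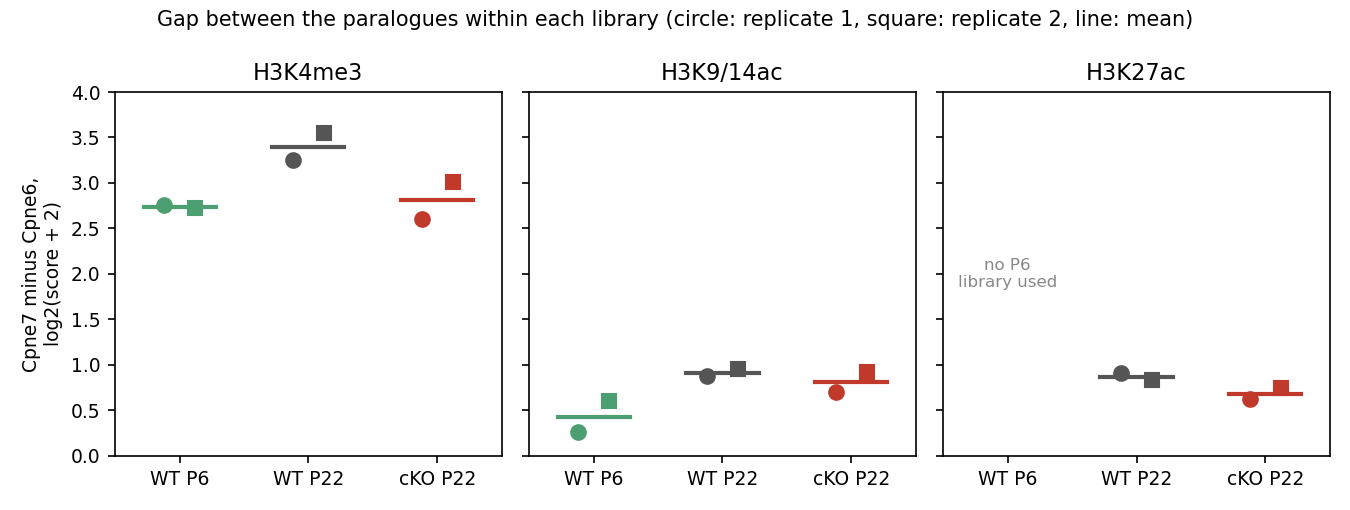
Cpne7 minus Cpne6 in log2(score + 2) within each library (vertical axis), by mark and group; circles are replicate 1, squares replicate 2 and lines the mean of 2 libraries. The gap is between 2.60 and 3.55 in H3K4me3 and below 1 in both acetylation marks, and in WT it is wider at P22 than at P6.

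The promoters whose scores moved most like each paralogue were found by Pearson's r over the 16 libraries, on log2(score + 2) with each promoter's mean in each mark subtracted. For Cpne6 these were As3mt (arsenite methyltransferase), Cda (cytidine deaminase) and Ripk4 (a kinase of keratinocyte differentiation), each with r between 0.96 and 0.97. For Cpne7 they were Cplx3, a complexin of ribbon synapses, Syde1, a GTPase-activating protein, and the immediate early gene Arc, with r of 0.95, 0.95 and 0.93. Between the paralogues r was 0.89, rank 9 of 22 for Cpne6 and rank 7 of 22 for Cpne7. The values of all promoters come from the same libraries, and high r was common: the median r over the 22 other promoters was 0.80 for Cpne6 and 0.87 for Cpne7. With libraries centred first, a step chosen after the values were seen, r was 0.13 for As3mt, -0.33 for Cda and 0.30 for Ripk4, and 0.90 for Cplx3, 0.83 for Syde1 and 0.65 for Arc. Between the paralogues it was then 0.72. The promoters most like Cpne6 were then others, Duox2 (r = 0.90), Mslnl (0.82) and Cplx3 (0.82), while Cplx3 and Syde1 still led for Cpne7.

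Among 32 genes of calcium-binding or calcium-regulated proteins, 4 were in the table: Casq1 (calsequestrin of muscle calcium stores), Pde1b (a calmodulin-dependent phosphodiesterase), Smoc1 (a secreted calcium-binding matrix protein) and Duox2 (a calcium-regulated NADPH oxidase). In the cKO, 0 of 3 tested passed for H3K4me3, 2 of 4 rose for H3K9/14ac (Casq1 by 1.53 and Smoc1 by 1.06 on the log2(score + 2) scale) and 3 of 3 rose for H3K27ac (Casq1 by 1.70, Smoc1 by 1.06 and Pde1b by 0.53), by limma with Benjamini-Hochberg adjustment. None fell. In H3K9/14ac the mean score of Casq1 was 0.715 in WT at P22 and 0.70 at P6, against 6.125 in the cKO. Both WT means were under the filter's minimum of 1, so Casq1 may have passed the filter through its cKO libraries. A rise may then have been built into its being tested, and the 2 of 4 is read with that limit. Over all promoters tested, 9 of 18, 18 of 22 and 20 of 21 rose. The median changes of the list genes were 0.41, 0.79 and 1.06, beside medians over all promoters of 0.94, 0.95 and 1.06. With age, 0 of 3 passed for H3K4me3 and 0 of 4 for H3K9/14ac, with medians of 0.11 and -0.009 beside 0.093 and -0.025 over all promoters. In these comparisons with 0 passing, H3K4me3 in the cKO and both marks with age, 0 also had an unadjusted limma p under 0.05. The largest age differences in the list were decreases at Smoc1, of -0.66 in H3K4me3 and -0.40 in H3K9/14ac. The largest increases were 0.36 at Duox2 in H3K4me3 and 0.11 at Pde1b in H3K9/14ac.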

How the data were processed

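Chromatin immunoprecipitation libraries of mouse cerebella were analysed from 1 table. Its values are, per the file headers, a score per gene and library, deposited with 2 decimals; window, background step and scaling are not stated there or in the labels. The submitters' processing notes name BWA and mm9. Columns named WT or KO without an age were read as P22. The design had allowed for read counts, and the choice stated for other units was used. Each mark was fitted once with limma 3.58.1 in R 4.3.3 on log2(score + 2) of all its groups, without covariates. P-values were adjusted by Benjamini-Hochberg over promoters reaching a score of 1 in 2 or more libraries, with a threshold of 0.05. Promoters under this filter were taken from the fit without it. In the filtered fits of uncentred scores the spread was pooled completely over promoters, so promoters with a score in all libraries share 1 standard error per comparison. In filtered centred fits of the acetylation marks standard errors differed between promoters (0.14 for Cpne6 and 0.08 for Cpne7 in H3K9/14ac, cKO against WT). Centred and uncentred p-values there thus rest on different estimates of the spread. Gene identifiers in the table were not used, because those beside Cpne6 and Cpne7 differ from their RefSeq identifiers. Interaction terms, exact permutation tests, libraries centred on their median, pseudocounts of 1 and 5, replicate blocks, fits of 2 groups, each promoter's own spread and left-out libraries were also computed. Besides the 2 members, the rule named the 3 promoters most correlated with each and the list genes in the table. Members, lists and settings were chosen with earlier results of these data known. Fits were tested on simulated data with independent noise at each promoter. No shift of whole libraries was simulated, so that test does not cover such shifts. Figures were drawn with Python 3.11.15 and matplotlib 3.10.9.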

Additional observations from a re-analysis of the deposited data

How the results depend on the processing

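Among the cKO against WT changes at P22, that of Cpne7 in H3K27ac was 0.78 to 1.16 with each library left out in turn. The H3K27ac change of Cpne6 was then 1.03 to 1.28. Cpne6 entered that fit through its cKO libraries alone, so no call is read from it. Centring each library on its median turned the cKO against WT changes of Cpne6 to -0.37 (H3K4me3), -0.30 (H3K9/14ac) and -0.015 (H3K27ac) and those of Cpne7 to -0.48, -0.40 and -0.20. It moved cKO against P6 to 0.00027 and 0.19 for Cpne6 and Cpne7 in H3K4me3 and to -0.36 and 0.022 in H3K9/14ac. It also let the age differences of Cpne7 pass at 0.67 and 0.42. Those of Cpne6 were then 0.37 in H3K4me3 (without the filter) and -0.058 in H3K9/14ac, neither passing. Centred, the H3K4me3 minus H3K27ac difference of Cpne7 was -0.73 and passed, and H3K4me3 minus H3K9/14ac of Cpne6 was -0.058. Centring without the filter, added after the data were seen, gave for cKO against WT -0.96 (Cpne7, H3K4me3), -0.44 and -0.55 (Cpne6 and Cpne7, H3K9/14ac) and 0.0080 and -0.18 (H3K27ac), for age 1.03 and 0.52 (Cpne7, H3K4me3 and H3K9/14ac, both passing), and against P6 0.069 (Cpne7, H3K4me3) and -0.40 and -0.025 (Cpne6 and Cpne7, H3K9/14ac). The share of promoters passing in the centred interaction fit was not counted, and the shares in these age fits are not given here. These calls therefore have no background beside them. Promoters called higher and lower went from 9 and 0 to 4 and 1 (H3K4me3), 18 and 0 to 3 and 7 (H3K9/14ac) and 20 and 0 to 5 and 6 (H3K27ac) for cKO against WT. They went from 2 and 3 to 4 and 6 (H3K4me3) and 1 and 2 to 2 and 4 (H3K9/14ac) with age, and from 9 and 0 to 4 and 5 and 17 and 0 to 2 and 8 for cKO against P6.

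With each promoter's own spread Cpne7 was no longer called in H3K9/14ac (0.77) or H3K27ac (0.97), nor against P6 (1.26 in H3K4me3, 1.25 in H3K9/14ac). Promoters called higher were then 3, 11 and 8 in the genotype comparisons, 0 and 0 with age (1 lower in H3K9/14ac) and 0 and 11 against P6. For H3K4me3 with age, 1 promoter was called higher without the filter, and 5 were called lower in a fit of the 2 ages alone.

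The replicate block let Cpne7 pass in H3K4me3 for genotype (0.54, limma adjusted p = 0.043) and age (0.72, 0.010) and in H3K9/14ac for age (0.49, 0.033), and changed no other call of either gene. With the block, promoters called higher numbered 15 for H3K4me3 in the cKO, 4 were higher and 6 lower with age, 1 was lower against P6, and in H3K9/14ac 3 were higher and 4 lower with age. Same-numbered libraries deviated together with r of 0.70, 0.16 and -0.27 (H3K4me3, H3K9/14ac, H3K27ac cKO and WT) 0.32 and 0.10 (ages) and 0.64 and 0.39 (cKO against P6). In H3K4me3 all 3 were positive, but there are 2 pairs and no label ties a number to an animal or batch, so the numbers were not taken as pairs. Crossed numbers in H3K27ac, tried after the data were seen, gave 21 calls, against 18 with the block as numbered.

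A pseudocount of 1 gave -0.00090 for Cpne6 with age in H3K9/14ac, 0.79 for H3K4me3 minus H3K27ac at Cpne6 and -1.29 for the paralogue gap in H3K4me3 of cKO against P6. A pseudocount of 5 gave gap changes in the cKO of 0.0026, 0.040 and 0.021 (H3K4me3, H3K9/14ac, H3K27ac) and -0.066 for H3K4me3 minus H3K9/14ac at Cpne6. Without log the gap changes were 5.43, 1.81 and 1.34.

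Leaving out single libraries gave 1.01 to 1.24 for Cpne6 in H3K4me3 (cKO against WT) and 1.08 to 1.31 against P6, 0.67 to 1.08 for Cpne6 and 0.46 to 1.08 for Cpne7 in H3K9/14ac, and 0.94 to 1.58 for Cpne7 in H3K4me3 against P6. Differences near 0 changed sign: -0.15 to 0.16 (Cpne6, age, H3K9/14ac), -0.15 to 0.099 and -0.092 to 0.21 (Cpne6, H3K4me3 minus H3K27ac in the cKO and minus H3K9/14ac with age), -0.55 to 0.090 and -0.51 to 0.11 (Cpne7 in the cKO, H3K4me3 minus H3K9/14ac and H3K9/14ac minus H3K27ac), -0.22 to 0.0065 (gap, H3K9/14ac in the cKO) and -0.14 to 0.27 (gap, H3K4me3, cKO against P6). Promoters called higher ranged from 5 to 12 (H3K4me3) and 11 to 20 (H3K9/14ac) in the cKO, 1 to 2 and 0 to 2 with age, and 4 to 11 for H3K4me3 against P6. The cause of these changes was not tested. Depth is unknown, and 2 libraries per group limit every comparison.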
